A study of Mus musculus with 4 samples.

Results

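The genes described here are 10 components of the transforming growth factor beta (TGF-beta) pathway in mouse liver: the ligands Tgfb1, Tgfb2 and Tgfb3, the latency protein Ltbp1, the receptors Tgfbr1, Tgfbr2 and Tgfbr3, and the signal transducers Smad2, Smad3 and Smad7. Each was listed by name and read from the probe set that the platform annotation pairs with that symbol alone. All 10 had 1 such probe set, among 22180 genes with one, and all 10 were among the 12458 genes bright enough to be tested. Expression was compared between 2 pools of liver RNA from male Nrg4 knockout mice (KO) and 2 pools from male wild type mice (WT), 1 Affymetrix Mouse Gene ST 2.1 array per pool. Nrg4 encodes neuregulin 4, a secreted growth factor related to epidermal growth factor. Both genotypes were kept for 20 weeks, starting at 3 months of age, on a diet used to induce fatty liver inflammation (NASH, non-alcoholic steatohepatitis; Research Diets D09100301), and livers were taken in the fed state. The sources used here give neither the strain, nor how the knockout allele was made, nor how many animals went into each pool.

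TGF-beta ligands are secreted in a latent form, held by their own propeptide and by latent TGF-beta binding proteins in the matrix, until integrins or proteases release them. The active ligand binds the type II receptor Tgfbr2, which recruits and phosphorylates the type I receptor Tgfbr1, and this kinase phosphorylates Smad2 and Smad3, which enter the nucleus with Smad4. In liver the pathway is known for driving stellate cells to become matrix-producing myofibroblasts, and for restraining hepatocyte growth.

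The values are log2 expression levels with an unknown zero point, so a level can be compared between arrays for 1 gene and not between genes. A difference is KO minus WT on the log2 scale, with the standard error (SE) of limma's moderated fit, and a gene counts as changed at a Benjamini-Hochberg adjusted p under 0.05 over all 12458 genes. Of those genes 6 passed, which is 0.0482% of the genes tested, with 3 higher (0.0241%) and 3 lower (0.0241%) in KO. An exact permutation of 2 pools against 2 cannot give a two-sided p below 0.333. Nrg4 itself had a log2 level of 0.93 in both KO pools, against 2.54 and 2.30 in the WT pools (difference -1.49 ± 0.20 SE; limma, adjusted p = 0.181). In KO its level was thus only 0.39 over the table median of 0.54, the median over all probe sets. The Nrg4 value in KO pool 1 was shared, to 4 decimals, by 301 other probe sets of that array, for a reason not given in the sources used here, so the size of this difference carries that limit. Albumin (Alb), the main secreted protein of hepatocytes, had log2 levels of 10.70 and 10.81 in the KO pools and 10.91 and 10.90 in the WT pools, above the table median in all 4 pools.

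None of the 10 members passed the adjusted threshold by limma, and 2 of them, Tgfbr2 and Tgfb1, had an unadjusted p under 0.05, both above 0. Over all tested genes 10.3% had such a p, 6.37% higher and 3.92% lower in KO. With limma's prior variance made to depend on intensity, 136 genes passed (1.09% of the genes tested), none of them a member, and the same 2 members had an unadjusted p under 0.05. The median difference of the 10 members was 0.02, with 5 above 0 and 5 below, beside a median of 0.01 over all tested genes, of which 51.6% lay above 0. The KO and WT pools did not overlap for 3 members, Tgfb1, Tgfbr2 and Tgfbr3, a share to be read beside the 41.7% of all tested genes whose pools did not overlap.

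The promoters of the pair of members with the smallest p, Tgfbr2 and Tgfb1, are shown because these were the members at an unadjusted p under 0.05. They are RefSeq sequences of build GRCm38.p6, 250 bases before to 50 bases after the gene's start, and capitals mark matches to the Smad-binding letters CAGAC, searched on both strands together with the palindrome GTCTAGAC and the AP-1 letters TGANTCA.
Tgfbr2, chr9:116175314-116175613, minus strand: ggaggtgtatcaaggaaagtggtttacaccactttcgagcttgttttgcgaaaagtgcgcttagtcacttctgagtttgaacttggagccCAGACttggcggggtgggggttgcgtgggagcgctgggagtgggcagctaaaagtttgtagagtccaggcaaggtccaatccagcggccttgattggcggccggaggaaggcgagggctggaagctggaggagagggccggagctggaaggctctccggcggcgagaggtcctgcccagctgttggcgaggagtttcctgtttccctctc
Tgfb1, chr7:25686752-25687051, plus strand: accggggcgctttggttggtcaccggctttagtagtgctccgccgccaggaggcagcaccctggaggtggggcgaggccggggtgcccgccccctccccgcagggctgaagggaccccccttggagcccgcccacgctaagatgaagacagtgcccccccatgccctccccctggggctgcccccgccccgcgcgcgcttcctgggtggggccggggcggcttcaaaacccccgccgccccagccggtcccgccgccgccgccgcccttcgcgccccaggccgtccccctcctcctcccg
The Tgfbr2 window held 1 CAGAC match, which starts at base 91 of the window, and the Tgfb1 window held 0. Of 32851 mouse promoters of the same length 49.6% held CAGAC, 0.213% held GTCTAGAC and 7.81% held TGANTCA, and neither of these windows held either of the other motifs. Their content of G and C was 59.0% for Tgfbr2 and 77.0% for Tgfb1. In the windows of the other members, CAGAC matched 2 times for Tgfb2 and 0 times for Smad3, 0 and 1 times in the 2 Tgfbr1 windows, and 1 and 2 times in the 2 Ltbp1 windows. A match describes letters in a window and is no evidence of binding.

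**Figure D1:**
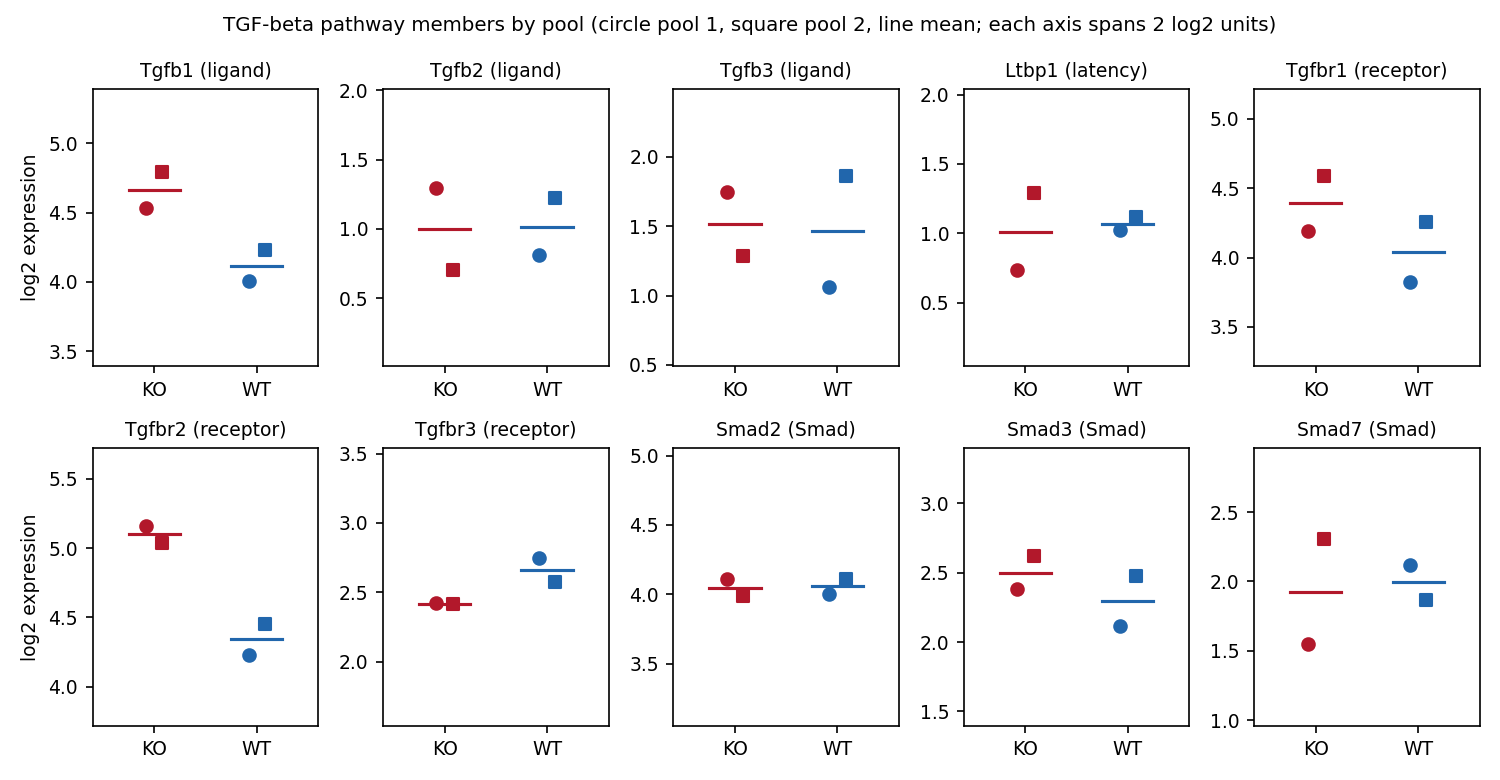
Log2 expression of the 10 TGF-beta pathway members in each pool, KO (red) left and WT (blue) right; circles are pool 1, squares pool 2 and lines group means, and every vertical axis spans 2 log2 units. For Tgfb1 and Tgfbr2 both KO pools lie above both WT pools, for Tgfbr3 both lie below, and for the other 7 genes the pools overlap.

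Among the ligands, Tgfb1 was the 1 whose KO pools both lay above the WT pools. Tgfb1 is the main isoform released by macrophages, platelets and stellate cells in injured liver. Its log2 levels were 4.54 and 4.79 in the KO pools, against 4.00 and 4.23 in the WT pools. The lower KO pool lay 0.30 above the higher WT pool, a gap slightly larger than that between the 2 KO pools (0.26) or the 2 WT pools (0.23). The difference was 0.55 ± 0.21 (SE, n = 2 each), or 1.46-fold with a 95% interval of 1.01 to 2.10 (limma, unadjusted p = 0.0446, adjusted p = 0.478). With the arrays centred on their medians the unadjusted p was 0.0802 by limma, with the difference at 0.50.

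Tgfb2 and Tgfb3, the isoforms better known from the epithelium and mesenchyme of developing organs, showed no separation of the genotypes. Tgfb2 had log2 levels of 1.30 and 0.70 in the KO pools and of 0.81 and 1.22 in the WT pools, so that the WT values lay between the KO values. Tgfb3 had 1.75 and 1.29 in the KO pools and 1.06 and 1.86 in the WT pools, and here the KO values lay between the WT values. The differences were -0.02 ± 0.28 for Tgfb2 and 0.05 ± 0.33 for Tgfb3 (SE, n = 2 each; limma, adjusted p = 0.990 and 0.967). Their 95% intervals ran between folds of 0.607 and 1.61 for Tgfb2 and between 0.587 and 1.84 for Tgfb3, so an increase as large as the one measured for Tgfb1 lay inside both. The mean of Tgfb2 exceeded the table median by 0.46 in KO and by 0.47 in WT, a level at which differences can be compressed.

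Ltbp1, which covalently binds the latent ligand and anchors it to the matrix, had log2 levels of 0.73 and 1.29 in the KO pools, against 1.02 and 1.12 in the WT pools. The KO pools lay on either side of the WT pools, with a gap of 0.56 between them against 0.09 between the WT pools. The difference was -0.06 ± 0.25 (SE, n = 2 each; limma, adjusted p = 0.956), with KO and WT means 0.47 and 0.53 above the table median. Without KO pool 1 it was 0.22 and without KO pool 2 it was -0.34.

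The 3 receptors gave 3 different pictures. Tgfbr2, the constitutively active kinase that binds the ligand first, had log2 levels of 5.16 and 5.03 in the KO pools, against 4.23 and 4.45 in the WT pools. The lower KO pool lay 0.58 above the higher WT pool, while pools of 1 genotype lay 0.13 (KO) and 0.22 (WT) apart. The difference was 0.76 ± 0.20 (SE, n = 2 each), or 1.69-fold with a 95% interval of 1.20 to 2.39 (limma, unadjusted p = 0.0104, adjusted p = 0.338). This was the smallest p among the members and ranked 383 among the 12458 tested genes. Over 13 alternatives the adjusted p of Tgfbr2 lay between 0.123, with the intensity-dependent variance, and 0.682, with all probe sets tested.

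Tgfbr1, the type I kinase that Tgfbr2 activates, had log2 levels of 4.19 and 4.59 in the KO pools, against 3.82 and 4.26 in the WT pools. The lower KO pool lay just under the higher WT pool, so the groups overlapped. The difference was 0.35 ± 0.26 (SE, n = 2 each; limma, adjusted p = 0.697), with a 95% interval of -0.28 to 0.98. It lay between 0.13 without WT pool 1 and 0.57 without WT pool 2.

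Tgfbr3 (betaglycan), a co-receptor without kinase activity that presents ligand, above all Tgfb2, to Tgfbr2, lay on the other side of 0. Its log2 levels were 2.42 and 2.41 in the KO pools, against 2.75 and 2.57 in the WT pools. Both KO pools lay below both WT pools, as in 19.5% of all tested genes. The difference was -0.24 ± 0.19 (SE, n = 2 each), or 0.845-fold with a 95% interval of 0.606 to 1.18 (limma, adjusted p = 0.721). Without each pool in turn it lay between -0.33 and -0.16, and its sign could not turn because the pools did not overlap.

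**Figure D2:**
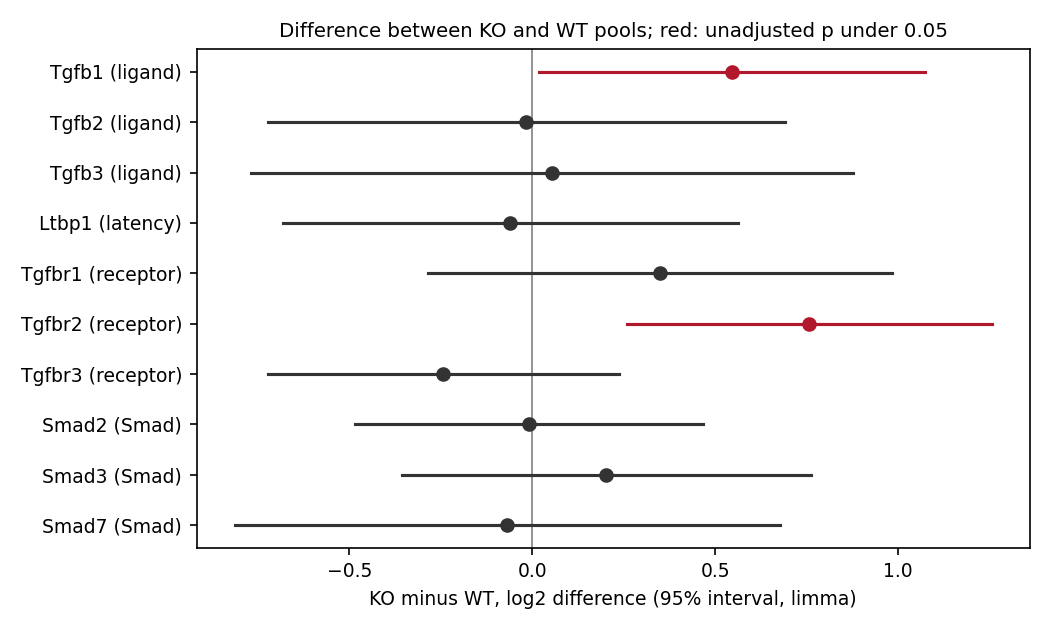
KO minus WT difference of each member on the log2 scale with its 95% interval from limma (2 pools per genotype); red marks an unadjusted p under 0.05. The intervals of Tgfb1 (0.02 to 1.07) and Tgfbr2 (0.26 to 1.26) lie above 0, the other 8 include it, and no member passed the adjusted threshold.

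The Smads gave no difference larger than the spread between pools. Smad2, a receptor-activated Smad, had log2 levels of 4.11 and 3.99 in the KO pools and of 4.01 and 4.11 in the WT pools. These 4 values lay within 0.12 of each other, and the difference was -0.01 ± 0.19 (SE, n = 2 each; limma, adjusted p = 0.993) with a 95% interval from 0.715-fold to 1.38-fold. Smad2 was thus the member whose interval was narrowest, and the sign of its difference turned with the arrays quantile normalized (0.0033).

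Smad3, the receptor-activated Smad that binds DNA itself and drives most fibrotic target genes, had log2 levels of 2.38 and 2.62 in the KO pools and of 2.12 and 2.47 in the WT pools. The groups overlapped, and the difference was 0.20 ± 0.23 (SE, n = 2 each; limma, adjusted p = 0.809). The Smad3 value was shared, to 4 decimals, by 31 other probe sets in KO pool 2 and by 62 in WT pool 2, and by 1 in each of the other pools. Smad7, the inhibitory Smad that the pathway itself induces and that targets Tgfbr1 for degradation, had log2 levels of 1.55 and 2.30 in the KO pools and of 2.12 and 1.87 in the WT pools. The KO pools lay 0.75 apart, on either side of the WT pools, the widest gap between KO pools among the members. The difference was -0.07 ± 0.30 (SE, n = 2 each; limma, adjusted p = 0.959), at 0.31 without KO pool 1 and -0.44 without KO pool 2.

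**Figure D3:**
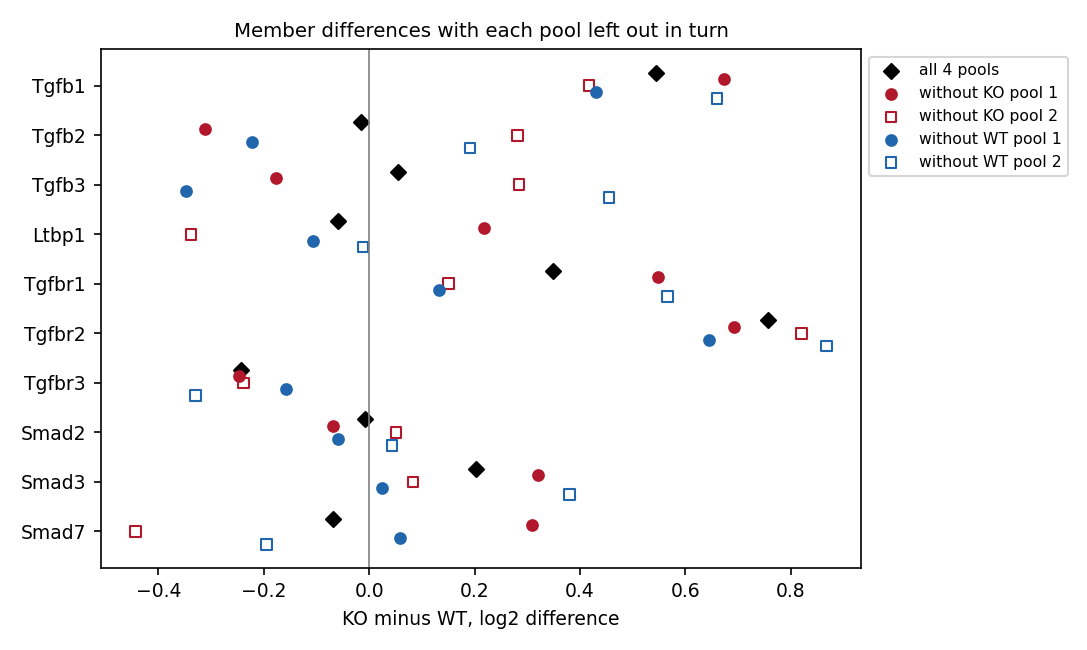
KO minus WT log2 difference of each member over all 4 pools (black diamonds) and with each pool left out (red, a KO pool; blue, a WT pool; filled, pool 1; open, pool 2). Tgfbr2 lies between 0.65 and 0.87, Tgfb1 between 0.42 and 0.67 and Tgfbr3 between -0.33 and -0.16. Since the pools of these genes do not overlap, leaving out a pool cannot turn their sign. Tgfb2, Tgfb3, Ltbp1, Smad2 and Smad7 take both signs.

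Of the pathway genes outside the members, 76 of 86 measured in 6 lists were bright enough to be tested, 3 of them on 2 lists, and limma called 0 of them. For 74 of the 76 both genotype means reached the table median, and of these 7 were higher and 1, Inhbc, was lower in KO at an unadjusted p under 0.05 (limma), beside 5.92% and 3.80% of the 11646 tested genes of that kind. The other two, Inhbb and Itgb8, reached the test through 1 genotype, since the mean of the other lay under the table median, and no test of them is given. The matrix and contractile response genes stood furthest from 0, with a list median of 0.40 over 18 genes, and the ligand latency genes had a median of 0.23 over 13. The medians of the other lists were 0.09 for the 15 regulatory response genes, 0.04 for the 12 co-receptors and receptor regulators, 0.03 for the 11 other Smads and their nuclear partners, and 0.00 for the 10 activin and nodal genes, beside 0.01 for all tested genes.

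Matrix and contractile response genes held 6 of the 7 genes that were higher at an unadjusted p under 0.05. Of the 18 tested, 17 lay above 0, and for 11 both KO pools lay above both WT pools, beside 22.2% of all tested genes. That matrix genes stood higher in these KO pools was known when the list was drawn up. Col1a2 and Col1a1, the chains of type I collagen, differed by 0.92 ± 0.21 and 0.71 ± 0.19 (SE, n = 2 each; limma, adjusted p = 0.297 and 0.346). The basement membrane collagen Col4a1 differed by 1.03 ± 0.25 and Bgn, a proteoglycan that binds TGF-beta, by 0.63 ± 0.19 (limma, adjusted p = 0.312 and 0.379). Bgn was called by limma with the intensity-dependent variance (adjusted p = 0.0121). These values are of the brightest probe set. With the mean of a gene's probe sets the difference was smaller for Col1a2 (0.70) and larger for Bgn (0.86). Acta2, the smooth muscle actin of myofibroblasts and a usual readout of TGF-beta in stellate cells, had log2 levels of 3.72 and 3.55 in the KO pools and of 3.51 and 3.74 in the WT pools. Its difference was 0.01 ± 0.20, and -0.04 with the arrays centred on their medians, so its pools overlapped and its sign depended on the scaling.

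The regulatory response genes were divided, with 10 of 15 above 0 and 5 below. Cdkn1a, the cell cycle inhibitor p21 through which TGF-beta can halt growth, had log2 levels of 4.85 and 5.01 in the KO pools, against 4.32 and 3.81 in the WT pools. Both KO pools lay above both WT pools, and the difference was 0.87 ± 0.24 (SE, n = 2 each; limma, unadjusted p = 0.0134, adjusted p = 0.364). The matricellular genes Ccn2 and Ccn1, which are targets of TGF-beta and of YAP, differed by 0.60 ± 0.27 and 0.49 ± 0.22 (limma, adjusted p = 0.534 and 0.526), with KO pools above WT pools for both. With the mean of its probe sets Ccn2 differed by 0.46. Klf10, an early TGF-beta target and repressor, lay the other way at -0.45 ± 0.23 (limma, adjusted p = 0.582), with both KO pools below both WT pools.

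**Figure D4:**
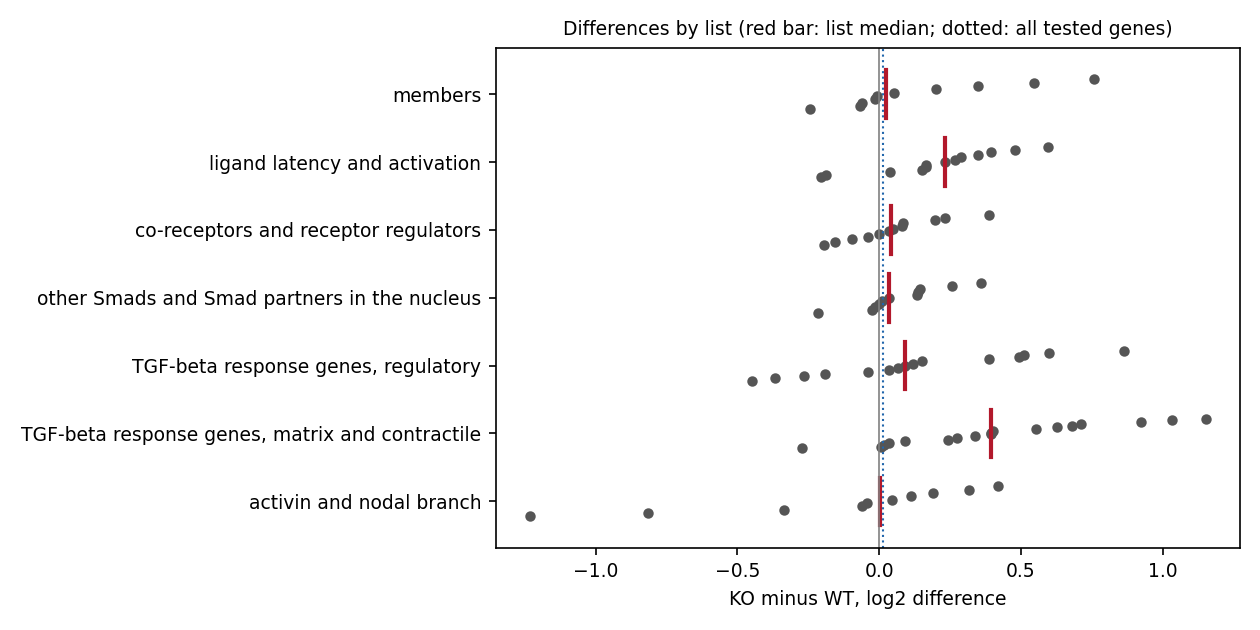
KO minus WT log2 difference of every tested gene of the members and of 6 lists of other pathway genes (points), with the list median (red bar), 0 (grey line) and the median of all tested genes (dotted line). The matrix and contractile response genes have a median of 0.40 with 17 of 18 genes above 0, and the members have one of 0.02.

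In the latency and activation list 11 of 13 genes lay above 0, and none had an unadjusted p under 0.05. Ltbp3, a sister of Ltbp1 that also carries latent ligand, differed by 0.60 ± 0.28 (SE, n = 2 each; limma, adjusted p = 0.557), with KO levels of 2.30 and 1.65 against WT levels of 1.52 and 1.24. For this binding protein both KO pools lay above both WT pools, unlike for Ltbp1. The integrin subunit Itgb5 differed by 0.35 ± 0.21 and Nrros, which tethers latent Tgfb1 on myeloid cells, by 0.29 ± 0.20, both with KO pools above WT pools. Itgb8, the subunit of a ligand-activating integrin, had log2 levels of 0.49 and 1.28 in the KO pools, against 0.51 and 0.47 in the WT pools, with a WT mean at -0.05 relative to the table median. KO pool 2 alone stood apart, and without it the difference was -0.0034.

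Co-receptors, receptor regulators and the remaining Smads had differences between -0.22 and 0.39, and none had an unadjusted p under 0.05. Pmepa1, a feedback inhibitor that TGF-beta induces, differed by 0.39 ± 0.25 (SE, n = 2 each), Cd109, an inhibitory co-receptor, by 0.23 ± 0.19, the endothelial type I receptor Acvrl1 by 0.20 ± 0.22 and the Smad anchor Zfyve9 by -0.19 ± 0.21. The endothelial co-receptor Eng was at 0.03 ± 0.25 and the shared partner Smad4 at 0.01 ± 0.24, and both were below 0 with the arrays centred on their medians (-0.01 and -0.04). The repressor Ski differed by 0.26 ± 0.20, the inhibitory Smad6 by 0.36 ± 0.31, the ubiquitin ligase Trim33 by -0.22 ± 0.26 and the coactivator Ep300 by 0.14 ± 0.19. For Ski and Ep300 both KO pools lay above both WT pools, and for Smad6 and Trim33 the pools overlapped.

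The activin branch, which also signals through Smad2 and Smad3, held the lowest differences of all 6 lists. Inhbc, the activin beta C subunit made by hepatocytes, had log2 levels of 4.19 and 4.55 in the KO pools, against 5.57 and 5.65 in the WT pools. The higher KO pool lay 1.01 below the lower WT pool, and the difference was -1.23 ± 0.22 (SE, n = 2 each; limma, unadjusted p = 0.00153, adjusted p = 0.240). It was called lower in KO by limma with the intensity-dependent variance (adjusted p = 0.0181). Inhbb, the beta B subunit, had log2 levels of 0.17 and 0.13 in the KO pools, against 1.18 and 0.76 in the WT pools. Its KO mean lay at -0.39 relative to the table median and its WT mean at 0.43, so Inhbb was tested only because of its WT level. Inhba, the beta A subunit, was at 0.42 ± 0.46 and the receptor Acvr1c at -0.34 ± 0.42, with KO pools that lay 1.40 and 1.26 apart.

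Several liver cell types express the pathway, and in bulk RNA a change in the number of cells of a type and a change in RNA per cell cannot be told apart. Markers of monocyte-derived macrophages stood above WT in both KO pools for 9 of 9 tested genes, beside 22.2% of all tested genes, with a mean log2 level of 3.53 and 3.59 in the KO pools against 2.57 and 2.74 in the WT pools. Their summed level on the linear scale was 178 and 182 in the KO pools, against 111 and 113 in the WT pools. A summed level is weighted towards the brightest genes of its list and was compared between pools only. The lipid receptor Trem2 differed by 1.30 ± 0.29 (SE, n = 2 each; limma, adjusted p = 0.297) and the glycoprotein Gpnmb by 0.27 ± 0.20. Stellate cell and portal fibroblast markers averaged 4.09 and 4.40 in the KO pools, against 4.04 and 3.74 in the WT pools, with 5 of 12 genes non-overlapping and higher, beside 22.2% of all tested genes. Their summed level was 503 and 584 in the KO pools, against 463 and 410 in the WT pools. Of the 12 genes 9 lay above 0, and 3 were higher at an unadjusted p under 0.05 (limma), beside 6.37% of all tested genes. The first 2 genes of the list, Lrat (0.11 ± 0.19) and Des (-0.09 ± 0.25), overlapped between the genotypes. Hepatocyte markers averaged 8.002 and 8.14 in the KO pools, against 8.30 in both WT pools, with 5 of 10 genes non-overlapping and lower (19.5% of all tested genes) and a summed level of 6052 and 6188 against 6967 and 6711.

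Kupffer cell markers averaged 4.34 and 4.30 in the KO pools, against 4.23 and 4.47 in the WT pools, with Clec4f at 0.33 ± 0.24 and Vsig4 at -0.01 ± 0.19 (SE, n = 2 each). For this list 4 of 8 genes were non-overlapping and higher and 2 were lower, beside 22.2% and 19.5% of all tested genes, and the summed level was 300 and 298 in the KO pools against 225 and 245 in the WT pools. Marco, a scavenger receptor of Kupffer cells named here after its values were seen, had log2 levels of 0.76 and 0.66 in the KO pools, against 2.63 and 3.53 in the WT pools. Its difference was -2.37 ± 0.33 (SE, n = 2 each; limma, adjusted p = 0.181; 0.0181 with the intensity-dependent variance). Without Marco the other 7 Kupffer markers averaged 4.85 and 4.83 in the KO pools, against 4.46 and 4.60 in the WT pools. The overlap of the list mean thus rested on this gene, which was left out after its values were seen. The 7 were themselves divided. C1qa, C1qb, C1qc and Cd5l were the 4 higher genes, Timd4 was lower in both KO pools, and Clec4f and Vsig4 overlapped.

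Endothelial markers averaged 4.07 and 4.26 in the KO pools, against 4.10 and 4.02 in the WT pools, with Pecam1 at 0.13 ± 0.19, Cdh5 at 0.33 ± 0.21 and a summed level of 246 and 254 against 239 and 233. The filter itself keeps any tested marker from lying under the table median in every pool. Among the smaller lists, cholangiocyte markers averaged 2.20 and 2.69 in the KO pools against 1.93 and 1.54 in the WT pools (5 genes). B and plasma cell markers averaged 1.54 and 1.32 against 0.89 and 0.92 (4 genes), and T and NK cell markers 1.22 and 1.15 against 1.11 and 0.90 (6 genes). The cholangiocyte gene Krt7 reached the test through KO, with a WT mean at -0.04 relative to the table median. Its value in KO pool 1 was shared by 301 other probe sets, and that of Epcam in KO pool 2 by 42. Cd8a of the T cell list exceeded 48.3% and 48.5% of probe sets in the WT pools, against 60.1% and 54.7% in the KO pools. The means of the macrophage, stellate, cholangiocyte, B cell and T cell lists stood higher in both KO pools, as did Tgfb1 and Tgfbr2. The T and NK list nevertheless had 3 genes above 0 and 3 below. Any gene with both KO pools above both WT pools, as in 22.2% of all tested genes, would match in this way. The match does not show that the levels vary together. Of 6 measured neutrophil markers 1 was tested, Csf3r, and it was also higher (difference 0.15). Below the filter, S100a9 was lower in both KO pools and S100a8 overlapped. The part of these cell types in the differences of Tgfb1 and Tgfbr2 was not tested.

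**Figure D5:**
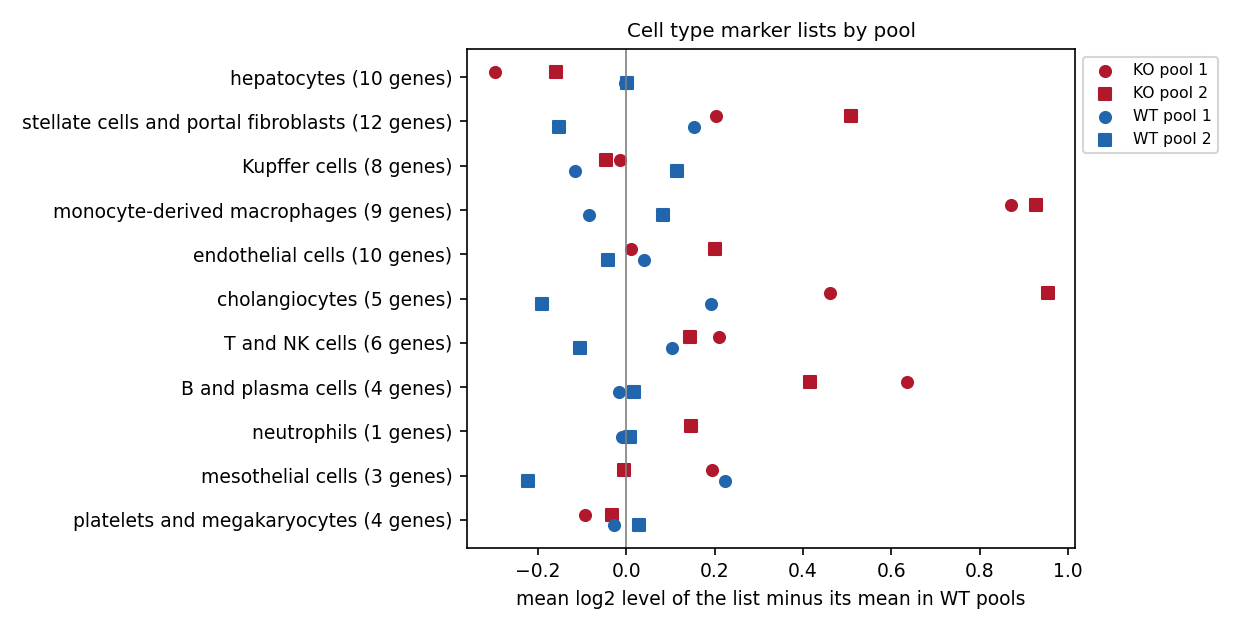
Mean log2 level of each list of cell type markers in each pool, relative to the list's mean over the WT pools; KO is red, WT blue, circles are pool 1 and squares pool 2. The macrophage, stellate, cholangiocyte, T cell, B cell and neutrophil lists lie above WT in both KO pools, the hepatocyte and platelet lists lie below, and the Kupffer, endothelial and mesothelial lists overlap.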

How the data were processed

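Liver RNA pools of Nrg4 KO and WT mice (2 per genotype, 400 ng of total RNA labelled per array, per the labels' protocols) were measured on 4 arrays. The deposited values are log2 expression per probe set, for 41345 probe sets. The submitters' processing notes name oligo, limma and RMA; versions, roles, genome build and annotation are not stated there. RMA corrects background, equalises arrays and summarises probes. Array medians were 0.64 and 0.53 in KO and 0.52 and 0.56 in WT, so the zero point is not that of usual RMA output. Depth does not apply; the number of arrays limits precision. No batch information was used here.

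The platform annotation named the probe sets (23521 with 1 symbol, 1814 with several, 16010 with none; the last 2 kinds were left out). Entrez identifiers of 23328 were found in RefSeq GRCm38.p6, which changed no symbol. The brightest probe set stood for a gene, and genes whose mean reached the table median (0.54) were tested with limma 3.58.1 in R 4.3.3 (lmFit, eBayes; statmod 1.5.0 for the robust prior), without covariates; the degrees of freedom were 2 residual and 3.67 prior. Pools are the replicates. The variance behind a p-value joins the gene's own spread between pools with a prior variance estimated over all tested genes. Data were also simulated 20 times, with 200 of 12458 genes changed. There the test recovered 2.50% of log2 changes of 1, 74.7% of those of 2 and 94.9% of those of 3. It made 6.7 false calls on average. The adjusted p depends on how many genes change, so these rates hold for the simulated number only. In the measured data few genes were called, and Marco, at -2.37, was not (limma, adjusted p = 0.181). Recovery in the measured data may thus be lower than these rates and was not tested.

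The members and lists were chosen with earlier results of these data known. Named are the members, Nrg4, the 4 genes of each pathway list with the smallest p, genes set by name (Col1a1, Acta2, Ccn2, Eng, Smad4; another is not reported here), and the first 2 genes of the main marker lists. Outside the marker lists, and beside Smad3 and Nrg4, some values were shared to 4 decimals with over 10 other probe sets of an array. They were those of Ltbp3 in WT pool 2 (156), Acvr1c (111) and Zfyve9 (30) in KO pool 1, and Col4a1 (17) and Ep300 (16) in KO pool 2. Of the marker genes, Krt7 and Pf4 in KO pool 1 shared theirs with 301 others each, and Epcam in KO pool 2 with 42. Marker lists for cholangiocytes, T and NK cells, B and plasma cells, neutrophils, mesothelial cells and platelets had medians of 0.71, 0.17, 0.53, 0.15, 0.12 and -0.06 over 5, 6, 4, 1, 3 and 4 tested genes. Promoters were found for 6 members outside chromosome 18, of which 2 are printed. Alternatives were centred or quantile-normalized arrays, 2 other filters, 2 other variance models, all probe sets of a gene, all probe sets of the table, the pool number as a block, and leaving out each pool.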

Additional observations from a re-analysis of the deposited data

How the results depend on the processing

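No member was called under any of the 13 alternatives. Of 127 recomputed member differences 116 kept their sign and 11 turned, but most alternatives could not move a difference. The filters, the variance models, the other uses of probe sets and the replicate block leave a member's difference as it is. Only centring, quantile normalization and leaving out a pool can change it. With quantile normalization Tgfb3 was at -0.022 and Smad2 at 0.0033. Without 1 pool, Tgfb2 lay between -0.31 and 0.28, Tgfb3 between -0.35 and 0.45, Ltbp1 between -0.34 and 0.22, Smad2 between -0.069 and 0.051 and Smad7 between -0.44 and 0.31. The stricter filter removed Tgfb2, Tgfb3 and Ltbp1 from the test. The unadjusted p of Tgfb1 was 0.0802 by limma with centred arrays, 0.0574 with all probe sets tested, 0.0558 with the replicate block and 0.0509 to 0.195 without 1 pool, and that of Tgfbr2 was 0.0643 without WT pool 1.

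The count of called genes, 6, was 136 with the intensity-dependent variance, 0 with all probe sets tested, 2 with the replicate block and 0 without any 1 pool, by limma; where it was 0, an unadjusted p under 0.05 was found for 2671 probe sets and for 906 to 1314 genes. At an unadjusted p under 0.05, 61.9% of genes were higher as deposited, 54.1% with centred arrays and 52.4% with the intensity-dependent variance. The deviations of same-numbered pools correlated at -0.04 across genes, which is no sign that the numbers pair the pools. In this balanced design the replicate block cannot change a difference, only its error, so Tgfbr2 was necessarily again at 0.757. Its adjusted p with the block was 0.418 (limma), and no member was called.

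The members' median, 0.02, was 0.20 with the stricter filter and -0.018 to 0.29 without 1 pool. The list medians moved as follows: latency genes 0.17 with no filter and with all probe sets tested, and 0.19 to 0.32 without 1 pool; co-receptors -0.005 with centred and 0.12 with quantile-normalized arrays, and -0.017 to 0.10 without 1 pool. Without 1 pool the other Smads lay between -0.11 and 0.22, regulatory response genes between 0.067 and 0.20, matrix response genes between 0.37 and 0.57 (0.57 without WT pool 1), and activin genes between -0.23 and 0.022. Among the other named genes, Acta2 was at -0.039 with centred and -0.0074 with quantile-normalized arrays, Eng at -0.013 and Smad4 at -0.038 with centred arrays, and Vsig4 at 0.048 with quantile-normalized arrays. Leaving out 1 pool gave Marco -2.82 to -1.92, Itgb8 -0.0034 to 0.79, Smad6 -0.06 to 0.78, Trim33 -0.46 to 0.028, Inhba -0.28 to 1.12, Acvr1c -0.97 to 0.30, Acta2 -0.11 to 0.12, Eng -0.24 to 0.31, Smad4 -0.20 to 0.22, Des -0.34 to 0.15 and Vsig4 -0.093 to 0.072. The causes were not tested. With 2 pools per genotype, a difference of 1 on the log2 scale is seldom called.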
